A study of Mus musculus with 8 samples.

Results

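The 37 genes described here make cholesterol, control its level, move it between membranes or turn it into oxysterols, and their mRNA was measured in prefrontal cortex. There were 4 mice of each genotype, α-Gal A(-/0) and wildtype, all of them male. They were chosen by gene symbol as the members of these pathways. Of 38 symbols given, 37 were on the array, the remaining one (Sc4mol) being an older symbol of Msmo1. The array carried 50 probes for them, of 55681 probes for 34650 gene symbols in all. Of the 50 probes, 49 passed the filter on low signal and were tested, covering all 37 genes, among 34339 tested probes for 23638 symbols. The second probe of Hmgcs1 was well above background on 4 of 8 arrays and was not tested. All 8 mice were of C57BL/6J strain by the labels and 20 to 24 weeks old, the α-Gal A(-/0) mice lacking the single X-linked copy of the lysosomal enzyme α-galactosidase A in every cell, as in Fabry disease. In the study's methods, the wildtype mice are C57BL/6J and the α-Gal A(-/0) line has a C57BL/6 background. The mice came from 2 separate inbred colonies, 1 per genotype, so genotype and colony cannot be told apart in these arrays. For RT-qPCR the study used other mice, with the α-Gal A(-/0) line backcrossed to wildtype as a control for colony effects. In tissue of mixed cell types, fewer cells of a type and less RNA per cell cannot be told apart either.

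The brain makes nearly all of its own cholesterol, because lipoprotein cholesterol hardly crosses the blood-brain barrier. Acetyl-CoA is built up through mevalonate and farnesyl diphosphate to squalene, squalene is closed to the ring of lanosterol, and lanosterol is trimmed and its double bonds moved until cholesterol is reached. When sterols run low, Scap carries the SREBP factors, encoded by Srebf1 and Srebf2, out of the endoplasmic reticulum and most enzyme genes of the pathway are switched on together, while the Insig proteins hold Scap back. Oxysterols, which are cholesterol with an added hydroxyl group, activate the LXR receptors, encoded by Nr1h2 and Nr1h3, and these raise Abca1, Abcg1 and Mylip. Neurons dispose of cholesterol mainly by turning it into 24-hydroxycholesterol with Cyp46a1.

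Sc5d and Cyp39a1 carried the genotype differences, and each was read by 1 probe of 60 bases that no other probe on the array repeats. The first 30 bases of each are shown because these sequences are what was measured. On mm9 the Sc5d probe lies at chr9:42062857-42062916 on the minus strand (NM_172769) and the Cyp39a1 probe at chr17:43887735-43887794 on the plus strand (NM_018887). Their place within the exons was not analysed here.
Sc5d probe: ggctgatgtaataagattgtacttcctata
Cyp39a1 probe: ggggaacggaaactggggtgggaatgtatt

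The promoter of Sc5d is shown beside those of Hmgcs1 and Msmo1, an early and a late enzyme gene of the same pathway, to set the lower gene beside enzyme genes that were not called. The windows are the 250 bases before the start of the gene in RefSeq on GRCm38.p6, at chr9:42264301-42264550 (minus strand) for Sc5d, chr13:119690101-119690350 (plus strand) for Hmgcs1 and chr8:64733579-64733828 (minus strand) for Msmo1. Capitals mark CCAAT on either strand, the letters bound by the factor NF-Y, which often sits beside SREBP, and TCACNCCAC, a common form of the sterol response element.
Sc5d: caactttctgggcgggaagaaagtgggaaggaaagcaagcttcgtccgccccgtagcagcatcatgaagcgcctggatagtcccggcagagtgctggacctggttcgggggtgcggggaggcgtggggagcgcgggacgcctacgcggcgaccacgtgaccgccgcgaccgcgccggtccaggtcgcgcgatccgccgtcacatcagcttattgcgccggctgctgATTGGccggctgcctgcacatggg
Hmgcs1: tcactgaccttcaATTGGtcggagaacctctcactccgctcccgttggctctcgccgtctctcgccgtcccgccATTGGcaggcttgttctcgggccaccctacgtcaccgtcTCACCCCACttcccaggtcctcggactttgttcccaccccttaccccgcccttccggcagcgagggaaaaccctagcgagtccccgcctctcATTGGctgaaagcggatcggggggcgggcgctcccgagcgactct
Msmo1: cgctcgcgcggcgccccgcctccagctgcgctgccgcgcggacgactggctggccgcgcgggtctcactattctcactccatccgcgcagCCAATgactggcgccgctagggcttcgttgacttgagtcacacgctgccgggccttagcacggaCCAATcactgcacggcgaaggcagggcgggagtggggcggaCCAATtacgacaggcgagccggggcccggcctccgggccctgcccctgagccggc
CCAAT stood once in the Sc5d window and 3 times in each of the other windows shown. The window of Insig1, a regulator gene that was not called, also held 1 CCAAT. Site counts in the remaining windows are not given here, so no rank of Sc5d among them follows. The table used held windows for 29 of the 37 genes, 15 of them enzymes of synthesis, and CCAAT was in 14 of these 15 (Acat2 being the exception) and in 23 of the 29, against 37.5% of 27025 genes. TCACNCCAC was in the Hmgcs1 window only of the 29, and in 1.22% of all genes. The windows of the synthesis genes were richer in G and C (median 62.8%) than those of all genes (median 52%), and the motifs were chosen after the expression values were seen. These matches describe letters, and the binding of a factor was not measured.

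All 8 arrays were read in 1 scan of 1 slide. Between 29943 and 36139 probes per α-Gal A(-/0) array and between 35648 and 38240 per wildtype array stood well above background, the lowest number belonging to α-Gal A(-/0) mouse 2. The slide had 2 rows of arrays, with α-Gal A(-/0) mouse 1 beside wildtype mice 1 to 3 in row 1 and the other 4 mice in row 2. The probe for Gla, the disrupted gene, read 17.15 ± 0.03 in α-Gal A(-/0) and 17.09 ± 0.07 in wildtype mice (mean ± SD of normalized log2 signal, n = 4 each), a difference that limma did not call (adjusted p = 0.707). Whether that probe lies within the disrupted stretch was not analysed here. Throughout, levels are log2 signals brought to a common distribution over the arrays, and differences are α-Gal A(-/0) minus wildtype on the log2 scale.

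For most genes of the sterol pathway no difference between the genotypes was called, and 2 were lower in α-Gal A(-/0) mice. These were Sc5d, the enzyme of the C5 desaturation late in cholesterol synthesis, and Cyp39a1, which hydroxylates 24-hydroxycholesterol on the way to bile acids. Of the 49 tested probes, 2 passed limma's test at an adjusted p under 0.05, both lower, and 47 probes for 35 genes were not called. Over all tested probes 0.885% were called, 0.58% as lower and 0.306% as higher. At an unadjusted p under 0.05 there were 4 lower probes and 1 higher probe among the 49, against 7.57% and 4.42% of all tested probes. With 1 probe per gene, the brightest, 27 of the 37 genes lay below 0 and 10 above, with a median difference of -0.05, beside a median of -0.02 over all tested genes, of which 57.4% lay below 0. The 49 probes varied little between mice of a genotype (median residual SD 0.11, against 0.14 over all tested probes).

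**Figure D1:**
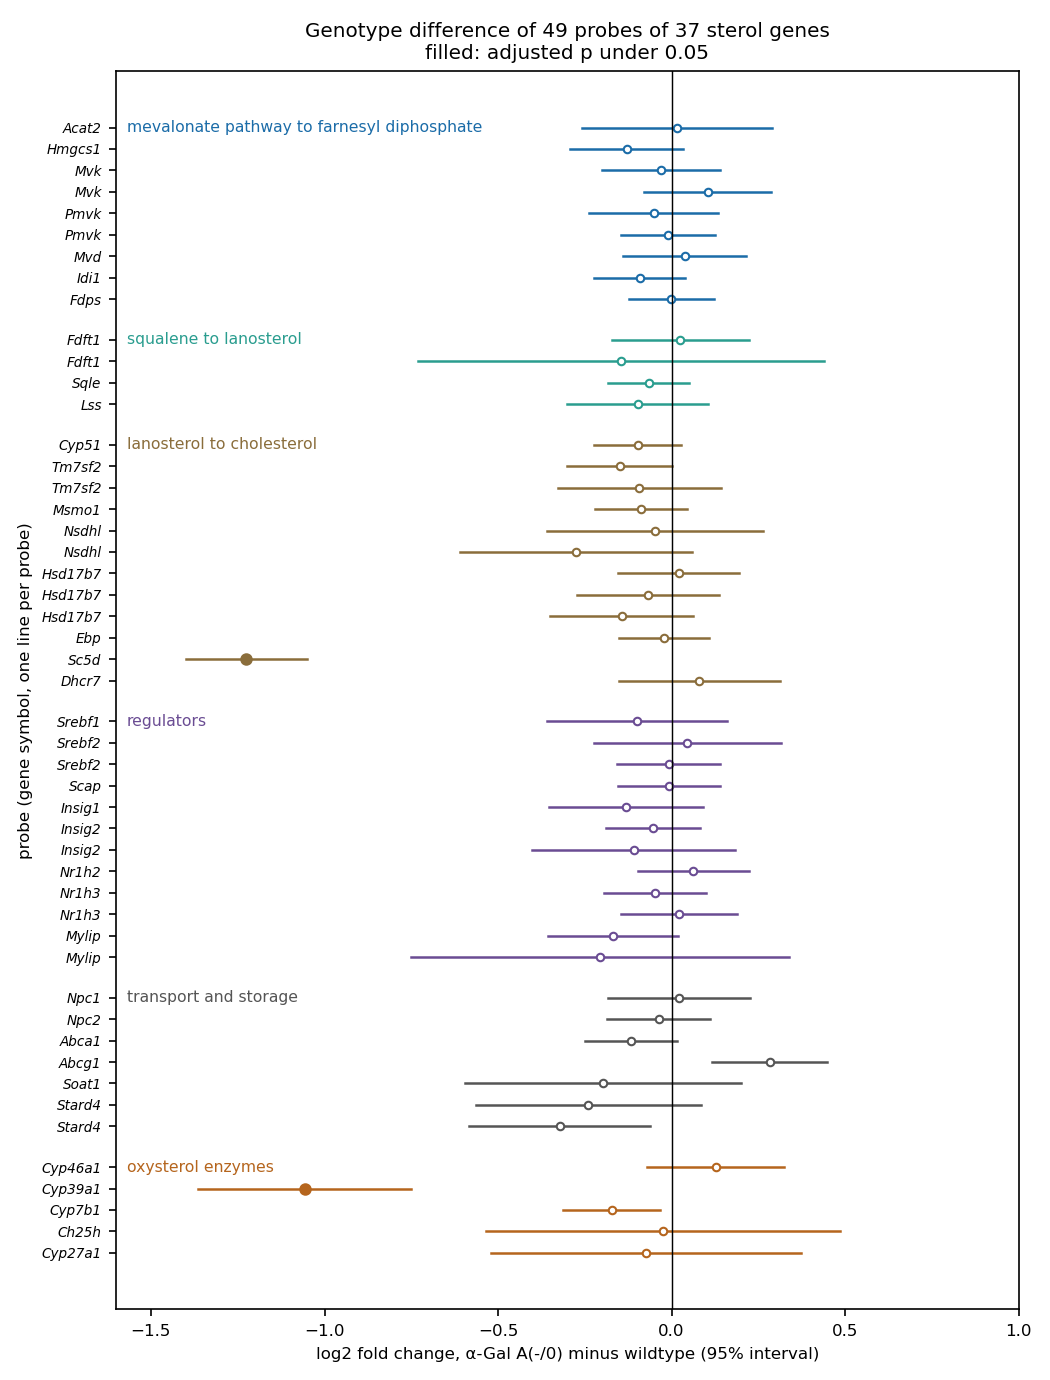
Log2 fold change, α-Gal A(-/0) minus wildtype (horizontal axis), with its 95% interval, for each of the 49 tested probes (vertical axis, by gene symbol) in 6 groups by role. Filled points had an adjusted p under 0.05: Sc5d at -1.23 and Cyp39a1 at -1.06 stand apart, and the other 47 lie between -0.32 and 0.28.

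Sc5d makes 7-dehydrodesmosterol or 7-dehydrocholesterol from their precursors, the step just before the reductase encoded by Dhcr7. Its log2 signal was 10.38, 10.23, 10.36 and 10.27 in the 4 α-Gal A(-/0) mice and 11.59, 11.35, 11.58 and 11.62 in the 4 wildtype mice. Every α-Gal A(-/0) mouse was thus about 1 log2 unit or more below every wildtype mouse. The difference was -1.23 (SE 0.08, 95% interval -1.40 to -1.05), a 2.34-fold lower signal, with an adjusted p of 0.000175 (limma, n = 4 per genotype). By p it was the 34th of the 34339 probes tested, and by the size of the fall the 120th. The call held under 17 other settings, among them each array left out in turn. Omission of saturated probes, counted among these settings, removed no tested probe and so repeated the main run. Within row 1 of the slide the difference was -1.14 and within row 2 it was -1.32, neither called with 1 mouse of a genotype against 3 (adjusted p = 0.155 and 0.163, limma). As Sc5d was known beforehand to be the lower gene of this pathway, its low signal here is a description of the same mice and no independent evidence. The study also measured Sc5d by RT-qPCR in the other, backcrossed set of mice. There it reported Sc5d significantly lower in α-Gal A(-/0) mice, by a smaller fold than on the array.

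The 17 other enzymes of synthesis did not move with Sc5d past the test. Before Sc5d, Acat2, Hmgcs1, Mvk, Pmvk, Mvd, Idi1 and Fdps lead from acetyl-CoA to farnesyl diphosphate. None of their 9 tested probes was called, and the differences ran from -0.13 for Hmgcs1, the HMG-CoA synthase, to 0.10 for 1 probe of Mvk, the mevalonate kinase. Fdft1, Sqle and Lss, which make squalene, its epoxide and lanosterol, had 4 probes between -0.15 and 0.03, none called. From lanosterol onward come Cyp51, Tm7sf2, Msmo1, Nsdhl, Hsd17b7, Ebp, Sc5d and Dhcr7. Apart from Sc5d, their 11 probes lay between -0.28 and 0.08 and none was called. Ebp, the isomerase directly before Sc5d, differed by -0.02 (95% interval -0.15 to 0.11), and Dhcr7, the reductase directly after it, by 0.08 (95% interval -0.15 to 0.31).

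For the brightest probe of each of these 17 genes the 95% interval lay within 0.4 of 0 on the log2 scale, the widest ends being -0.36 and 0.31. A fall of the size seen in Sc5d lies outside all of them. Their mean deviation from the 8-mouse mean was -0.01, -0.07, -0.05 and 0.05 in the 4 α-Gal A(-/0) mice and 0.03, 0.02, -0.0034 and 0.03 in the 4 wildtype mice. The genotypes overlapped in this mean, since α-Gal A(-/0) mouse 4 had the highest value of all. Sc5d itself deviated by -0.54 to -0.69 in α-Gal A(-/0) and by 0.43 to 0.70 in wildtype mice.

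**Figure D2:**
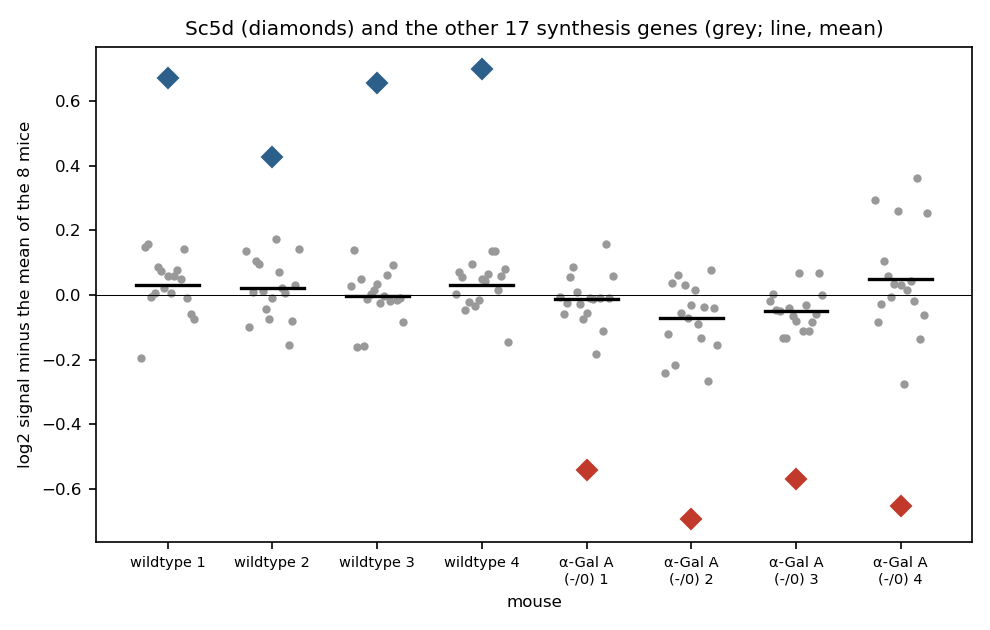
Log2 signal minus the mean of the 8 mice (vertical axis) in each mouse (horizontal axis), for Sc5d (diamonds, blue in wildtype and red in α-Gal A(-/0)) and for the brightest probe of each of the other 17 synthesis genes (grey points, with a black line at their mean). Sc5d lies between 0.43 and 0.70 in wildtype and between -0.69 and -0.54 in α-Gal A(-/0) mice, and the means of the other genes stay between -0.07 and 0.05.

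Several synthesis genes had 1 mouse apart from the other 3 of its genotype. For the less bright Mvk probe, the signals were 10.34, 10.33, 10.37 and 10.64 in α-Gal A(-/0) and 10.32, 10.27, 10.30 and 10.35 in wildtype mice, so that its difference of 0.10 (adjusted p = 0.645, limma) came mostly from 1 animal, and without that animal it was 0.03. The brighter Mvk probe differed by -0.03. Mvd, the mevalonate diphosphate decarboxylase, read 9.91, 9.89, 9.69 and 9.89 in α-Gal A(-/0) and 9.84, 9.92, 9.67 and 9.81 in wildtype mice, with no separation of the genotypes.

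Fdft1, the squalene synthase, read 11.92, 11.92, 11.93 and 12.25 in α-Gal A(-/0) and 12.01, 11.91, 12.01 and 11.97 in wildtype mice. Its dim second probe, well above background on 3 of the 4 α-Gal A(-/0) arrays, read 5.48, 5.11, 5.72 and 5.49 against 5.30, 5.37, 5.33 and 6.39. In both, a single high mouse set the spread. Cyp51, the lanosterol demethylase, read 8.53, 8.45, 8.43 and 8.56 in α-Gal A(-/0) and 8.60, 8.62, 8.54 and 8.61 in wildtype mice, a difference of -0.10 (adjusted p = 0.522, limma) in which the groups just overlapped. Tm7sf2, a sterol C14 reductase, had the lowest p of the uncalled synthesis genes. It read 11.778, 11.828, 11.929 and 12.002 in α-Gal A(-/0) and 12.038, 11.983, 12.020 and 12.097 in wildtype mice, a difference of -0.15 (SE 0.07, adjusted p = 0.419, limma), and 1 α-Gal A(-/0) mouse lay above the lowest wildtype mouse.

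No regulator was called. Srebf1, Srebf2, Scap, Insig1, Insig2, Nr1h2, Nr1h3 and Mylip had 12 probes, none of which kept the genotypes apart, with differences from -0.21 to 0.06. Srebf2, the main SREBP gene of cholesterol synthesis, differed by 0.05 and -0.01 on its 2 probes, and Scap by -0.01 (95% interval -0.15 to 0.14). Insig1, itself a target of SREBP, differed by -0.13 (95% interval -0.35 to 0.09). The 2 probes of Insig2 gave -0.05 and -0.11. The first read 12.18, 12.27, 12.26 and 12.29 in α-Gal A(-/0) and 12.35, 12.20, 12.33 and 12.34 in wildtype mice. The second read 10.89, 10.92, 10.92 and 10.41 against 10.87, 11.04, 10.94 and 10.74. The isolated value was wildtype mouse 2 on the first probe and α-Gal A(-/0) mouse 4 on the second, so the probes did not share it. Mylip, whose product marks lipoprotein receptors for degradation, gave -0.17 on its brighter probe (95% interval -0.36 to 0.02).

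Among the transport and storage genes, Abcg1 was the one member whose 4 α-Gal A(-/0) values all exceeded the wildtype values, and it did not pass the test. Abcg1 exports cholesterol to lipoprotein particles. It read 12.61, 12.54, 12.45 and 12.35 in α-Gal A(-/0) and 12.19, 12.26, 12.25 and 12.11 in wildtype mice. The difference was 0.28 (SE 0.07, 95% interval 0.12 to 0.45), 1.22-fold, with an adjusted p of 0.178 (limma), and between 0.0534 and 0.999 over the alternatives. Separation of this kind in the higher direction was seen for 3.08% of all tested probes and for 1 of the 49. Abca1, the other LXR-driven exporter, read 9.81 to 10.00 in α-Gal A(-/0) and 9.98 to 10.06 in wildtype mice, a difference of -0.12 (adjusted p = 0.47, limma).

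Stard4, a carrier of cholesterol through the cytosol, had the lowest p of the uncalled lower members on its dim probe. That probe read 5.86, 5.60, 5.76 and 6.04 in α-Gal A(-/0), where it was well above background on 3 of 4 arrays, and 6.32, 6.13, 6.16 and 5.94 in wildtype mice. The difference was -0.32 (SE 0.11, adjusted p = 0.32, limma) with overlapping groups. The brighter Stard4 probe gave -0.24, with 10.63, 10.77, 10.83 and 10.15 against 10.82, 10.86, 10.88 and 10.79, where 1 α-Gal A(-/0) mouse was lowest by a wide margin. Npc1 and Npc2, which release cholesterol from the lysosome, differed by 0.02 (95% interval -0.18 to 0.23) and -0.04 (95% interval -0.18 to 0.11). Soat1, which esterifies cholesterol for storage, gave a wide interval of -0.60 to 0.20 around -0.20.

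Of the 5 oxysterol enzymes, Cyp39a1 was lower in α-Gal A(-/0) mice. Cyp39a1 too was known beforehand to be lower, so its values describe the same mice and are no independent evidence. Its signal was 7.80, 7.66, 8.19 and 7.95 in α-Gal A(-/0) and 9.15, 9.07, 8.75 and 8.85 in wildtype mice. The groups did not overlap, and the gap between the highest α-Gal A(-/0) and the lowest wildtype mouse was smaller than for Sc5d. The difference was -1.06 (SE 0.13, 95% interval -1.36 to -0.75), a 2.08-fold lower signal, with an adjusted p of 0.00987 (limma, n = 4 per genotype), the 141st by p and the 170th by size of fall among 34339 probes. The call was lost with slide row as a block (-1.06, adjusted p = 0.0628, limma). It was also lost under the unequal-variance test of the study's methods (given with the other settings in the closing section). Within row 1 the difference was -1.19 and within row 2 it was -0.92, neither called (adjusted p = 0.248 and 0.987, limma).

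The enzyme that makes the substrate of Cyp39a1 was not called. Cyp46a1 read 10.78, 10.77, 10.77 and 10.58 in α-Gal A(-/0) and 10.59, 10.78, 10.59 and 10.44 in wildtype mice, a difference of 0.13 (95% interval -0.07 to 0.32, adjusted p = 0.6, limma) with overlapping groups. Cyp7b1, which hydroxylates 25- and 27-hydroxycholesterol, read 10.42, 10.32, 10.43 and 10.25 in α-Gal A(-/0) and 10.51, 10.55, 10.47 and 10.58 in wildtype mice. These groups did not overlap, yet the difference of -0.17 (SE 0.06, adjusted p = 0.324, limma) was not called. Sc5d, Cyp39a1 and Cyp7b1 were the 3 of 49 member probes separated in the lower direction, against 4.87% of all tested probes. Ch25h and Cyp27a1, which make 25- and 27-hydroxycholesterol, gave -0.03 and -0.07 with intervals reaching beyond 0.37 either way, Cyp27a1 being well above background on 3 of 4 α-Gal A(-/0) arrays.

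**Figure D3:**
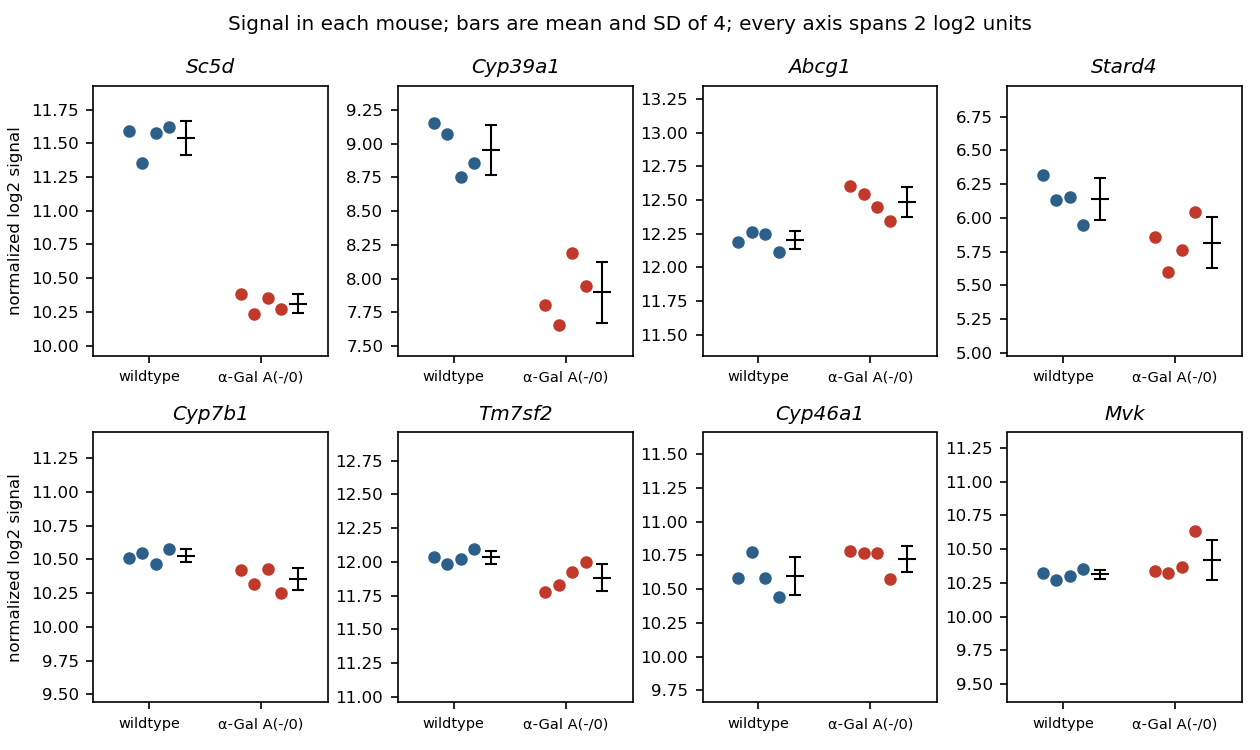
Normalized log2 signal (vertical axes, each spanning 2 log2 units) in each wildtype (blue) and α-Gal A(-/0) (red) mouse, with the mean and SD of 4 (black), for the 2 called genes and the 3 uncalled genes of lowest p in each direction, on the probe of lowest p. The group means of Sc5d and Cyp39a1 differ by about 1 unit and those of Abcg1 and Cyp7b1 by less than 0.3, without overlap of the genotypes. The groups of the other 4 genes overlap.

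The probes of a gene lay close together but did not always share a direction. For Fdft1, Hsd17b7, Mvk, Nr1h3 and Srebf2 they fell on both sides of 0. Of the 37 genes, 11 had more than 1 tested probe, and the largest distance between probes of one gene was 0.23, for Nsdhl, the C4 decarboxylating dehydrogenase. Sc5d and Cyp39a1 had 1 probe each, so neither could be compared with a second. In 34 of the 49 probes (69.4%) the SD was larger in α-Gal A(-/0) than in wildtype mice, as it was in 65.9% of all tested probes.

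Beyond these members, a list of 59 other genes of sterol uptake, prenyl branches, SREBP control, exchange and bile acid synthesis was examined, of which 56 were tested on 86 probes. None was called by limma (unadjusted p under 0.05 for 7 lower and 2 higher probes), and 1 was called, an Apod probe, with normexp background correction. The lowest p belonged to 1 dim probe of Apod, an apolipoprotein of glial cells. It read 2.78, 2.50, 7.54 and 2.13 in α-Gal A(-/0) and 8.36, 7.89, 8.31 and 8.55 in wildtype mice, with an adjusted p of 0.15 (limma). α-Gal A(-/0) mouse 3 was near the wildtype level and the other 3 were not well above background. The bright probe of Apod, well above background on all 8 arrays, read 14.28 to 14.82 in α-Gal A(-/0) and 14.60 to 14.80 in wildtype mice, a difference of -0.14 (adjusted p = 0.694, limma), so the 2 probes of this gene differed widely. Osbpl6, an oxysterol-binding protein gene, gave -0.23 (adjusted p = 0.206, limma). A dim probe of Lrp1, a lipoprotein receptor gene, gave -0.64 (adjusted p = 0.215, limma) and was well above background on 1 of the 4 α-Gal A(-/0) arrays, while the bright Lrp1 probe lay on the other side of 0 at 0.08 (adjusted p = 0.699, limma).

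Genes near Sc5d on chromosome 9 were also measured. Within 1 Mb of the Sc5d probe on mm9, 29 other probes were tested, 18 of them for transcribed intervals without a gene symbol. Of these 29, 2 were lower and 2 higher by limma (13.8%, beside 0.885% of all tested probes). The lower ones were a probe with no gene name (-0.92, adjusted p = 0.000173) and 1 probe of the interval at chr9:41368823-41369514 (-1.22, adjusted p = 0.0219), well above background on 1 of the 4 α-Gal A(-/0) arrays. The unnamed probe read 6.32, 6.40, 6.33 and 6.33 in α-Gal A(-/0) and 7.24, 7.34, 7.29 and 7.18 in wildtype mice. Higher were Sorl1, a sorting receptor of neurons, on 1 probe, and 1 probe of the interval at chr9:41422319-41425855 (0.89, adjusted p = 0.0317, limma).

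Sorl1 was higher on 1 probe (13.93, 13.90, 13.86 and 13.96 against 13.26, 13.14, 13.04 and 12.98), by 0.81 (adjusted p = 0.00122, limma). Its other probe went the other way, by -0.36 (adjusted p = 0.052, limma), so the level of the gene as a whole has no single direction. The closest genes to Sc5d with a tested probe, Tbcel and Grik4, gave 0.03 and 0.00 for the 2 probes of Tbcel and -0.07 for Grik4. Near Cyp39a1 on chromosome 17, 1 of 15 other probes was called (6.67%), for Pla2g7, a hydrolase of oxidized phospholipids, which read 12.95, 12.90, 12.96 and 13.01 in α-Gal A(-/0) and 13.46, 13.42, 13.33 and 13.42 in wildtype mice (-0.45, adjusted p = 0.00739, limma). Its second probe gave -0.27 and was not called. With slide row as a block, the calls of Pla2g7 (-0.46, adjusted p = 0.0514) and of both intervals (adjusted p = 0.052 for the higher and 0.109 for the lower) were lost, and those of the unnamed probe and of Sorl1 held (limma). Between 0 and 10 of these 44 neighbouring probes were called over the alternatives, against 5 here.

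**Figure D4:**
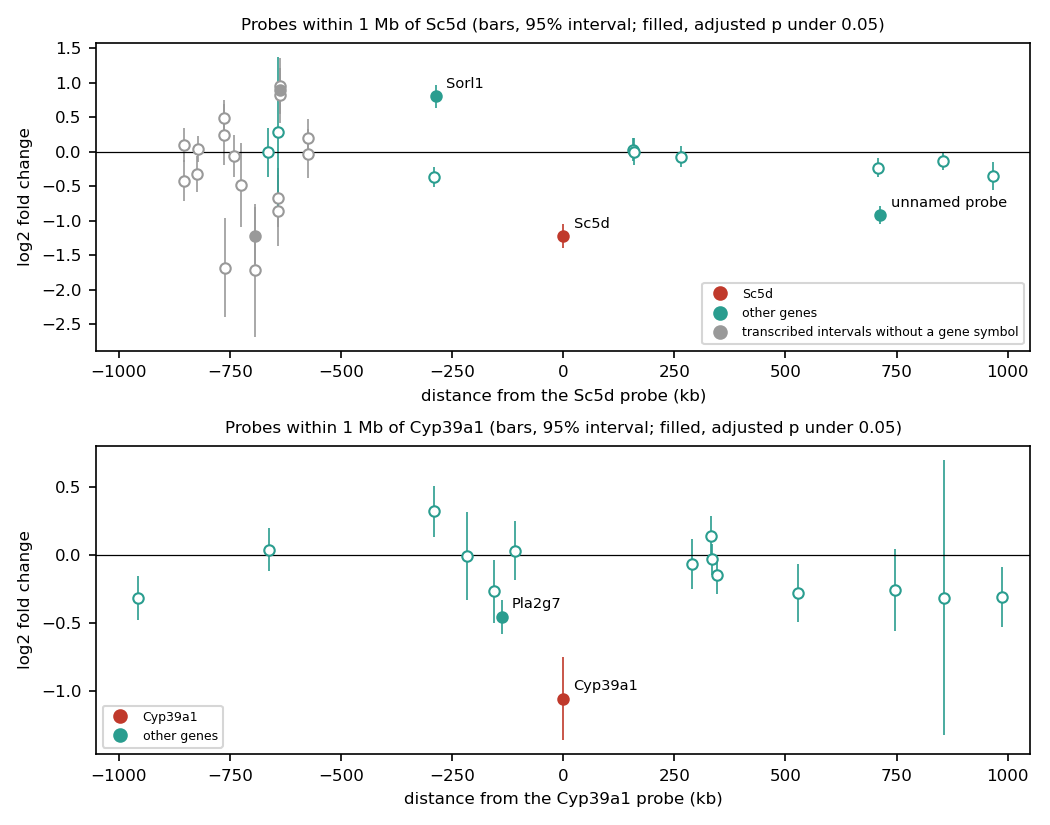
Log2 fold change, α-Gal A(-/0) minus wildtype (vertical axes, with 95% intervals), of probes by distance in kb (horizontal axes) from the Sc5d probe (upper panel) and the Cyp39a1 probe (lower panel). Filled points had an adjusted p under 0.05: called neighbours of Sc5d lie on both sides of 0, from -1.22 to 0.89, and the called neighbour of Cyp39a1 is Pla2g7 at -0.45.

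Markers of the cell types in cortex were compared as well. All 8 astrocyte markers lay below 0 (median -0.15, none called), as did all 6 excitatory neuron markers (median -0.15, none called) and all 6 microglia markers (median -0.31, with Csf1r called at -0.44). Of 8 oligodendrocyte markers 7 lay above 0 (median 0.16, none called). Inhibitory neuron markers were split, 3 below and 3 above 0 (median -0.02, none called). Of the endothelial markers 3 lay below 0 and 2 above, and of the tested choroid plexus markers 2 below and 1 above, none called. Among all tested genes 57.4% lay below 0 on the brightest probe. The mean of the microglia markers, as deviation from the 8-mouse mean, ran from -0.24 to -0.05 in α-Gal A(-/0) and from 0.06 to 0.30 in wildtype mice, and that of the astrocyte markers from -0.14 to 0.01 and from 0.08 to 0.10. All 6 markers of striatum, a neighbouring region, lay above 0 (median 0.65, none called), with means from -0.81 to 0.95 and from -1.16 to 0.31. Means of the excitatory neuron markers also overlapped, from -0.187 to 0.1 in α-Gal A(-/0) and from 0 to 0.162 in wildtype mice. Those of the oligodendrocyte markers overlapped too, from 0.046 to 0.125 and from -0.178 to 0.053. The part of cell composition in the values above was not tested.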

How the data were processed

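RNA of the prefrontal cortex was hybridized to one-color Agilent SurePrint G3 mouse arrays, 1 per mouse. The deposited scanner files hold processed intensity values that Agilent Feature Extraction 10.7.3.1 had detrended across the surface, without normalization between arrays. The deposited log2 values of the authors, whose columns do not follow their sample names, were not used. Positions are those of the array design (mm9).

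Repeated spots were averaged per probe before log2 values were quantile normalized over the 8 arrays, as in the study. Controls and 81 unevenly hybridized probes were dropped, and a probe was tested where all 4 arrays of either genotype had it well above background. The two-sided limma test (lmFit, eBayes; limma 3.58.1, R 4.3.3, statmod 1.5.0, version 1.17.8 of data.table) compared the genotypes, p was adjusted by Benjamini-Hochberg across the 34339 probes, and an adjusted p under 0.05 is a call. Intervals are 95%. The study's methods use Welch's test, which is given as an alternative. The steps were tested on simulated data. The number of arrays limits the precision.

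The genes, lists and tests were chosen with earlier results of these data known. All members are accounted for. Values by mouse are given for called members, for the 3 uncalled members of lowest p in each direction, and for members with an isolated mouse by Dixon's test. Of other pathway genes and neighbours within 1 Mb, those called or the 3 of lowest p are named, and any further one was named after its values were seen. No member gene had probes more than 0.5 apart. Alternatives were a shift to the 75th percentile, normexp background correction (offset 50), no filter or one on all 8 arrays, omission of saturated probes, Welch's test, an intensity trend with robust variances, the replicate number or the slide row as a block, and each array left out. Omission of saturated probes removed no tested probe, so its results are those of the main run. Each slide row alone was added after seeing the data. Promoter sequences are those of RefSeq. Plots used matplotlib 3.10.9 in Python 3.11.15 (pandas 2.3.3, numpy 2.4.6).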

Additional observations from a re-analysis of the deposited data

Results flagged for a closer look

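In a group of 4 mice, 1 value stood apart from the other 3 by Dixon's test in 10 of 104 groups examined, of which chance flags about 1 in 20. On member probes, the isolated value was 10.637 for the less bright Mvk probe, 12.25 for the brighter Fdft1 probe, 10.415 for the less bright Insig2 probe and 10.576 for Cyp46a1, all in α-Gal A(-/0) mouse 4, and 9.695 for Mvd in α-Gal A(-/0) mouse 3. In wildtype mice it was 11.352 for Sc5d and 12.197 for the brighter Insig2 probe, both in mouse 2, 8.542 for Cyp51 in mouse 3 and 6.387 for the dim Fdft1 probe in mouse 4. In α-Gal A(-/0) mouse 2, 29943 probes stood well above background, against 35218 to 36139 in the other 3. Mouse 4 of the α-Gal A(-/0) group held 4 of the 10 isolated values. The low Sc5d value of wildtype mouse 2 still exceeded every α-Gal A(-/0) value.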

How the results depend on the processing

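Sc5d was called under 17 alternatives, at -1.25 to -1.18 under the 9 that kept every array and at -1.28 to -1.20 with an array left out, and lost the call in slide row 1 alone (-1.14) and row 2 alone (-1.32). Cyp39a1 kept its call with each array left out (-1.15 to -0.98) and lost it under the methods' Welch test (-1.06, adjusted value 0.102), the replicate block (-1.06, adjusted p = 0.116, limma), the slide row block (-1.06), row 1 alone (-1.19) and row 2 alone (-0.92). Its smallest size was -0.83, with normexp. The count of called member probes fell from 2 to 1 under Welch's test, the replicate block and the slide row block, and to 0 in either row alone, and stayed at 2 with any array left out. No other member probe was called under any alternative run. Abcg1, Cyp46a1, Cyp7b1, Tm7sf2, the less bright Mvk probe and the dim Stard4 probe kept their direction wherever they were tested. Some other members near 0 did not: up to 9 of the member probes changed sign (slide row 1 alone), and 8 in row 2 alone. With the slide row block 5 did, the farthest from 0 being Soat1 at -0.20. With an array left out the most was 7, without α-Gal A(-/0) mouse 2, beside 5 without α-Gal A(-/0) mouse 4 and 4 without wildtype mouse 4. The members' median of -0.0516 became -0.0802 with the 75th percentile shift and ran from -0.088 (without α-Gal A(-/0) mouse 4) to -0.0423 with an array left out.

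Of all tested probes 304 were called, 437 with an intensity trend and robust variances, 402 with normexp, 89 under Welch's test, 156 with the replicate block, 149 with the slide row block, 115 in row 1 alone, 62 in row 2 alone and 189 to 265 with an array left out (189 without wildtype mouse 3, 198 without mouse 4 and 202 without mouse 1). The share of lower calls, 65.5%, was 55.9% without wildtype mouse 1, 42.6% in row 1 alone, where higher calls were the more, and 87.1% in row 2 alone. Of other pathway genes, 0 were called, and 1 (the dim Apod probe) with normexp, in row 1 alone or without α-Gal A(-/0) mouse 3, with 0 to 1 as arrays were left out. Of the neighbours of Sc5d and Cyp39a1, 5 were called, 8 with the 75th percentile shift, 9 with normexp, 3 without a filter, 2 under Welch's test, 10 with an intensity trend, 2 with the replicate block, 2 with the slide row block, 0 in either row alone and 3 to 6 with an array left out. Those left at 3 were without α-Gal A(-/0) mouse 1 or 3 or without wildtype mouse 1 or 4. The replicate numbers did not pair the mice (residual correlations of -0.09, 0.14, 0.01 and 0.15). Cyp27a1 and the dim probes of Fdft1, Mylip, Stard4 and Hsd17b7 were near background. The causes of these shifts were not tested.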
